A study of Homo sapiens with 16 samples.

Results

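The genes described here are 8 transcription factors of luminal breast epithelium and 1 protein of the secretory pathway: FOXA1, GATA3, ESR1, TFAP2A, TFAP2B, TFAP2C, ELF3, SPDEF and AGR2. They were taken by symbol from a table of 35106 genes, in which each of the 9 had 1 row. RNA had been sequenced from 2 human breast cancer lines, MDA-MB-231 and SKBR3, in 16 libraries. The 4 groups were MDA-MB-231 control (5 libraries), MDA-MB-231 with 500 nM MitoQ for 48 h (5), SKBR3 control (3) and SKBR3 with the same dose and time (3). MDA-MB-231, used at passage 25, came from a pleural effusion, lacks hormone receptors and HER2, and has mesenchymal features. SKBR3 carries an amplified ERBB2 gene and was used at passage 10, so that line and passage cannot be told apart. MitoQ carries a coenzyme Q head on a triphenylphosphonium cation and collects in mitochondria. Both lines grew in the same medium (DMEM with high glucose and serum), and the labels do not say what was given to the controls. Each line was a single established line, and the labels do not say whether replicates came from separate cultures, so p-values measure only the spread between these libraries.

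In the luminal epithelium of the breast, FOXA1 opens chromatin at enhancers to which the oestrogen receptor ESR1 then binds, and GATA3 acts with both. The AP-2 proteins TFAP2A, TFAP2B and TFAP2C bind GC-rich elements, among them elements of the ERBB2 and ESR1 genes, and the ETS-family factors ELF3 and SPDEF act in epithelial and secretory differentiation. AGR2 is a protein disulfide isomerase of the endoplasmic reticulum that helps secretory proteins such as mucins fold, and its gene is a known target of FOXA1 and ESR1.

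Promoter sequence from RefSeq (assembly GRCh38.p14) was matched by symbol for 8 of the 9 genes, all but TFAP2C. The 250 bases before each start were searched on both strands for the core motifs of the families these factors belong to. The 4 sequences below were chosen because they carry matches, or, for SPDEF, because the gene had one of the 2 largest MitoQ changes. Bases that lie in an annotated exon were left out. Each sequence reads 5′ to 3′ on the strand of its gene, and capitals mark the matches.
FOXA1, minus strand, chr14:37595349-37595499: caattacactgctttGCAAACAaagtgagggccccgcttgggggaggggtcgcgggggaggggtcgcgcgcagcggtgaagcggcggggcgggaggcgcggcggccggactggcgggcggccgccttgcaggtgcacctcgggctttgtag
GATA3, plus strand, chr10:8045083-8045332: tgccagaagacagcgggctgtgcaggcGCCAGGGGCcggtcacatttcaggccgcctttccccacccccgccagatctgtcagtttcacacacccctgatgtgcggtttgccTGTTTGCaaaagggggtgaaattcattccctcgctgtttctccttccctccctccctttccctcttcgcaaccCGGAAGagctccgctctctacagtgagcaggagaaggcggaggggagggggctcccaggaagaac
SPDEF, minus strand, chr6:34556334-34556579: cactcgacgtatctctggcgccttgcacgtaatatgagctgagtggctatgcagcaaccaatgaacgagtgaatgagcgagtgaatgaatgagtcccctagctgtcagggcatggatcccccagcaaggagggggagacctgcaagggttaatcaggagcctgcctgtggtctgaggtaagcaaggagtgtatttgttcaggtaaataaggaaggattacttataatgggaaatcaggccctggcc
AGR2, minus strand, chr7:16805081-16805249: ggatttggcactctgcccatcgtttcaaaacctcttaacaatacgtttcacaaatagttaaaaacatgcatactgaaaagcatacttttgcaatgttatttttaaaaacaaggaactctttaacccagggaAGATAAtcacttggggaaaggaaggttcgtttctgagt
The FOXA1 window held 1 forkhead motif (TGTTTGC, on the opposite strand, beginning at -235 from the start). GATA3 had 6 starts in the table, and the window of the one shown held an AP-2 motif (GCCNNNGGC, -223), a forkhead motif (TGTTTGC, -138) and an ETS motif (CGGAAG, -65). Windows of 2 other GATA3 starts held the AP-2 motif alone (-206 and -218). AGR2 had a GATA motif (AGATAA, -119). No match to these motifs, nor to TGTTTAC, the palindromic oestrogen response element or the C/EBP-ATF element TGATGNAA, was found in the windows of SPDEF, ELF3, TFAP2A, TFAP2B or ESR1. Of 35116 promoter windows of the same length, 3.23% held TGTTTGC, 2.98% TGTTTAC, 19.8% GCCNNNGGC, 16.5% CGGAAG, 9.17% AGATAA, 3.14% TGATGNAA and 0.0399% the oestrogen response element. The motifs share no bases with each other in the sequences shown.

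Library totals ranged from 14723152 to 29294865 counts. Levels are in CPM, the counts of a gene relative to its library's total after scaling by trimmed means (TMM), and intervals on counts cover counting error only. The line labels were checked against marker genes: the intermediate filament gene VIM lay at 3410 CPM in MDA-MB-231 controls and 0.179 CPM in SKBR3 controls, and ERBB2 at 54.1 and 5320 CPM. Summed leukocyte markers lay between 0.848 and 2.68 CPM in every library, and of these 8 genes TYROBP had no count in any. The 6 endothelial markers summed to 6.53 to 29.2 CPM, most of it CDH5 in SKBR3 (17.5 CPM in controls), while CLDN5 had no count in 3 of the 4 groups, and the 7 fibroblast markers to 6.87 to 11.8 CPM. Their part in the results was not tested. Along the components of all genes, 2 libraries stood apart from their groups. MDA-MB-231 MitoQ replicate 2 lay at -32.41 on the second component of that line (7.75% of the variance), against 1.34 to 13.16 in the other MitoQ libraries. SKBR3 control replicate 3 lay at -7.24 on the first component of its line (40.4%), between the other controls (-24.65 and -23.63) and the MitoQ libraries (15.89 to 21.22). For the members tested within a line the MitoQ results are given with and without the library of that line that stands apart, and for the gene lists the counts are.

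The lines were compared first, because these genes mark a luminal program and MDA-MB-231 has mesenchymal features. Of the 9 genes, 7 were higher in SKBR3 controls than in MDA-MB-231 controls, GATA3 was lower, and ESR1 did not pass the test (edgeR quasi-likelihood test, adjusted p of under 0.05). The differences were very unequal, from a 363-fold higher AGR2 to a 6.95-fold higher TFAP2C. Of the 16398 genes tested between the control lines, 86.5% passed, 42% as higher and 44.4% as lower in SKBR3, so that a call alone says little here and the sizes carry the result. The median log2 difference was 4.93 over the 9 genes and -0.02 over all genes tested. AGR2 and TFAP2B are among the 7 and in that median. With 3 to 9 and 1 to 5 counts per MDA-MB-231 control, they passed the filter on low counts only through SKBR3. They could therefore be called only as higher in SKBR3.

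**Figure D1:**
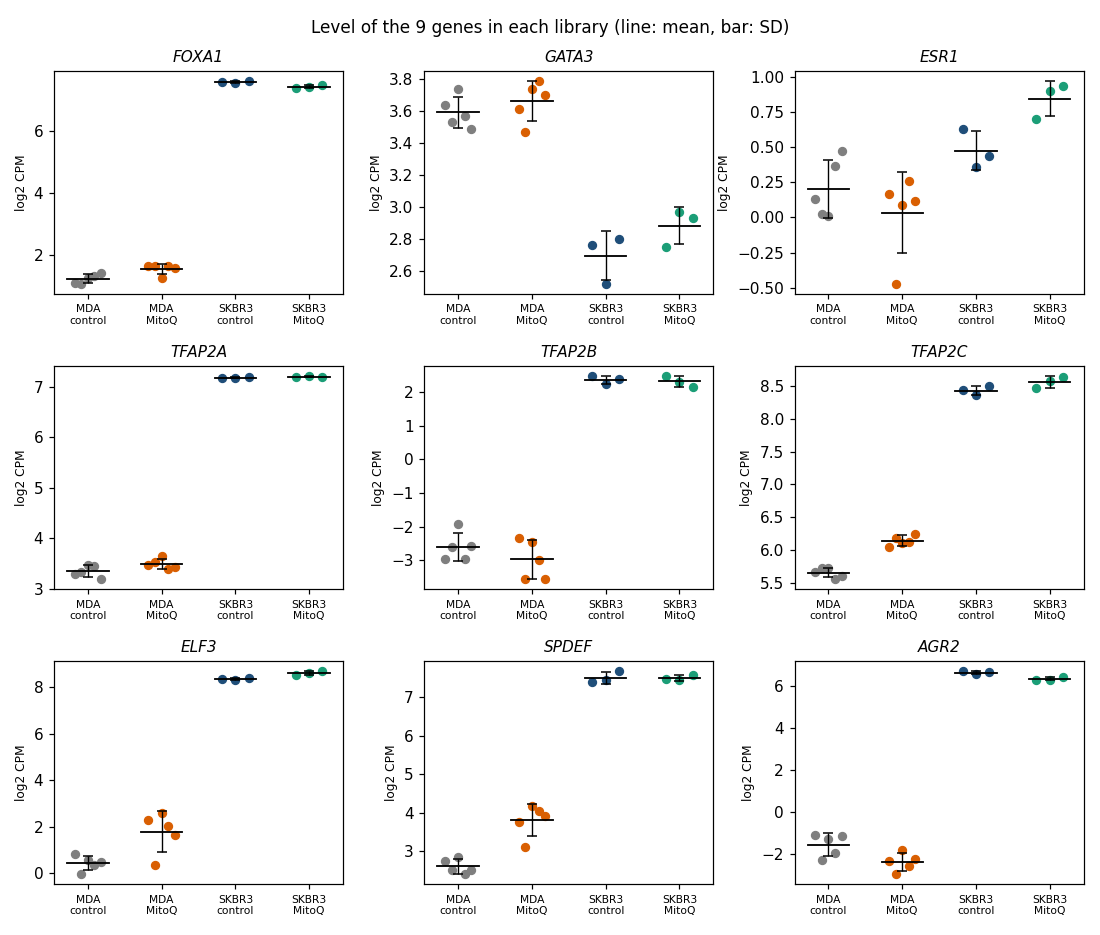
Level of each of the 9 genes in each of the 16 libraries, as log2 CPM with 2 counts added before the logarithm, by line and treatment. Points are libraries, horizontal lines are group means and bars are SD. Each panel has its own axis. In 7 panels every SKBR3 library lies above every MDA-MB-231 library, for GATA3 every SKBR3 library is lower, and for ESR1 the controls of the lines overlap. Over all genes tested 86.5% passed between the control lines. The share of all genes whose libraries do not overlap was not computed, so the count of panels is no result about the members.

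FOXA1 (ENSG00000129514, chr14:37589984-37596059, minus strand) lay at 191, 185 and 195 CPM in the SKBR3 controls. The MDA-MB-231 controls had 2.07, 2.02, 2.30, 2.41 and 2.61 CPM. No library of one line came near the other, and the log2 difference was 6.40 ± 0.061 (SE; 84.4-fold, adjusted p = 2.49e-26). The forkhead gene FOXA2, the paralogue of FOXA1 best known from liver and lung, had the opposite arrangement: 50.8 ± 2.23 CPM (SD, n = 5) in MDA-MB-231 controls and no count in any of the SKBR3 libraries. Against 3 counts over the 3 SKBR3 controls together, FOXA2 was at least 1040-fold higher in MDA-MB-231. FOXA3 also lay higher in MDA-MB-231 controls (3.04 ± 0.313 CPM, n = 5) than in SKBR3 controls (0.0745 ± 0.0516 CPM, n = 3). So the counts of this family came mostly from FOXA1 in SKBR3 and from FOXA2 in MDA-MB-231. Of the 31-base stretches of FOXA1 transcripts, 1.6% also occur in transcripts of other genes on either strand. Of the genes given counts, FOXA2 alone shares any. The exons of FOXA1 overlap the gene TTC6 on the other strand, though no TTC6 transcript shared a 31-base stretch. Whether reads were counted by strand is not given in the sources used here. TTC6 lay at 0.599 ± 0.157 CPM (n = 5) in MDA-MB-231 controls and 22.7 ± 1.90 CPM (n = 3) in SKBR3 controls.

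GATA3 (ENSG00000107485, chr10:8045378-8075203, plus strand), a zinc-finger factor needed for luminal differentiation, was the only one of the 9 that was higher in MDA-MB-231. Its controls had 12.4, 11.47, 13.3, 11.8 and 11.1 CPM there and 6.72, 5.66 and 6.88 CPM in SKBR3. The ranges were apart, and GATA3 was lower in SKBR3 by a log2 difference of -0.87 ± 0.098 (1.83-fold, adjusted p = 4.15e-08). Within its family GATA2, known from blood and endothelium, went the other way, from 15.4 ± 0.898 CPM in MDA-MB-231 controls to 132 ± 9.35 CPM in SKBR3 controls (log2 3.12 ± 0.056, adjusted p = 3.88e-22). GATA6 lay at 16.7 ± 0.511 and 15.6 ± 0.714 CPM (adjusted p = 0.267, log2 -0.08 ± 0.068).

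ESR1 (ENSG00000091831, chr6:151656691-152129619, plus strand), the oestrogen receptor alpha gene, was near the bottom in both lines, which are both known as receptor-negative. MDA-MB-231 controls had 1.01, 0.933, 0.919, 1.204 and 1.30 CPM, which correspond to 24 to 32 counts each. SKBR3 controls had 1.46, 1.198 and 1.27 CPM. The ranges overlapped and the log2 difference of 0.31 had an interval from -0.15 to 0.77 (adjusted p = 0.222). ESR2, the beta receptor gene, lay at 2.93 ± 0.400 and 2.50 ± 0.551 CPM in the controls of the 2 lines.

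The 3 AP-2 genes were all higher in SKBR3 controls. TFAP2C (ENSG00000087510, chr20:56629302-56639283, plus strand) had 50.5, 52.7, 52.9, 47.1 and 48.5 CPM in MDA-MB-231 controls and 346, 328 and 363 CPM in SKBR3 controls (log2 2.80 ± 0.045, adjusted p = 7.65e-23). TFAP2A (ENSG00000137203, chr6:10393186-10419659, minus strand) had 9.70, 10.03, 11, 10.8 and 9.08 CPM in MDA-MB-231 controls. In SKBR3 controls its values were 144, 144 and 147 CPM, which spread less, relative to their mean, than those of the other members (log2 3.86 ± 0.054, adjusted p = 7.13e-24). TFAP2B (ENSG00000008196, chr6:50818723-50847613, plus strand) had 1 to 5 counts per library in MDA-MB-231 controls, 11 in all. It had 5.47, 4.66 and 5.14 CPM in SKBR3 controls, a ratio of counts of 58.4 (95% exact interval 32.2 to 118). The related TFAP2E lay lower in SKBR3 (0.396 ± 0.176 CPM) than in MDA-MB-231 controls (3.83 ± 0.436 CPM; log2 -3.25 ± 0.25, adjusted p = 6.8e-11). Of the 31-base stretches of TFAP2A 15% occur in other genes, against 0.0163% for TFAP2B and none for TFAP2C, so TFAP2A counts are less certain.

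ELF3 (ENSG00000163435, chr1:202007945-202017188, plus strand), an epithelium-restricted ETS factor, had few counts in MDA-MB-231 and many in SKBR3. MDA-MB-231 controls had 1.69, 0.894, 1.38, 1.204 and 1.30 CPM (23 to 40 counts), and SKBR3 controls 327, 318 and 338 CPM, a log2 difference of 8.0 ± 0.072 (256-fold, adjusted p = 9.42e-27). Its transcripts share 20.3% of their 31-base stretches with other genes, the largest share among the 9, so ELF3 counts, too, are less certain. The exons of ELF3 also overlap the antisense gene ELF3-AS1, and those of TFAP2A overlap TFAP2A-AS1 and TFAP2A-AS2. The part of such reads was not tested. SPDEF (ENSG00000124664, chr6:34537802-34556333, minus strand), an ETS factor of secretory cells, had 6.62, 5.56, 7.11, 5.20 and 5.58 CPM in MDA-MB-231 controls and 167, 173 and 205 CPM in SKBR3 controls. Replicate 3 is the high one of the SKBR3 controls, and the log2 difference was 4.93 ± 0.087 (adjusted p = 1.31e-16), or 4.83 without that library. The epithelial ETS gene EHF, in contrast, lay at 19.1 ± 1.55 and 19.4 ± 1.27 CPM (log2 0.04 ± 0.075, adjusted p = 0.662).

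AGR2 (ENSG00000106541, chr7:16791811-16833433, minus strand) showed the widest gap. Its SKBR3 controls had 104, 93.8 and 99.8 CPM, and its MDA-MB-231 controls 0.380, 0.117, 0.318, 0.172 and 0.367 CPM, or 34 counts over 5 libraries. The ratio of counts between the lines was 367, with a 95% exact interval of 263 to 531. The neighbouring paralogue AGR3 had 0 to 2 counts in every library. MDA-MB-231 levels of AGR2 and ELF3 were 0.273% and 0.395% of those in SKBR3. Among 230 genes of at least 500 CPM in SKBR3 controls, the lowest such share was 0.0189% (S100A14), which bounds any carry-over of SKBR3 RNA into the MDA-MB-231 libraries.

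**Figure D2:**
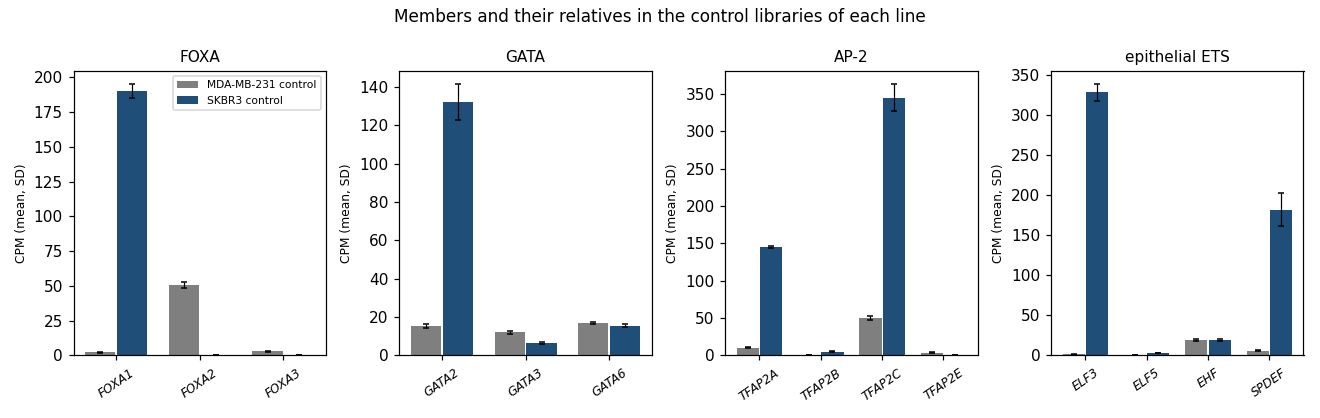
Mean CPM (bars; error bars are SD) of members and their relatives in the MDA-MB-231 (grey, n = 5) and SKBR3 (blue, n = 3) controls, on linear axes that differ between panels. FOXA2 has counts in MDA-MB-231 alone while FOXA1 is high in SKBR3, GATA2 and GATA3 differ in opposite directions, and EHF is level.

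To order the genes within a line, levels were divided by the median length of their coding transcripts. In SKBR3 controls the order was TFAP2C (121 ± 6.18 CPM per kb, n = 3), ELF3 (103 ± 3.19), SPDEF (96.6 ± 10.7), AGR2 (77.4 ± 3.87), FOXA1 (66.5 ± 1.75), TFAP2A (53.7 ± 0.503), GATA3 (2.31 ± 0.238), TFAP2B (0.882 ± 0.0706) and ESR1 (0.298 ± 0.0312). The ranges of ELF3 and SPDEF overlapped and all other neighbours were apart. In MDA-MB-231 controls TFAP2C led (17.6 ± 0.900 CPM per kb, n = 5), followed by GATA3 (4.32 ± 0.302), TFAP2A (3.75 ± 0.295) and SPDEF (3.20 ± 0.430). Below these lay FOXA1 (0.797 ± 0.0847), ELF3 (0.407 ± 0.0903), ESR1 (0.245 ± 0.0390), AGR2 (0.211 ± 0.0931) and TFAP2B (0.0146 ± 0.00952). GATA3 overlapped TFAP2A, TFAP2A overlapped SPDEF, and ELF3, ESR1 and AGR2 overlapped their neighbours in that order. TFAP2C thus headed both lines. The place of ELF3 depends on the transcript taken: with the longest coding transcript it falls to 65.6 ± 2.03 CPM per kb in SKBR3 controls, level with FOXA1. That of AGR2 depends on it too: with the longest coding transcript AGR2 has 55.7 ± 2.78 CPM per kb there, below FOXA1 (66.5 ± 1.75) and ELF3 with the ranges apart, so the order of AGR2 and FOXA1 reverses. In MDA-MB-231 controls that length also puts SPDEF (3.17 ± 0.427 CPM per kb) above TFAP2A (2.64 ± 0.208), with overlapping ranges.

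MitoQ was compared with control within MDA-MB-231, which asks whether the low luminal program of that line moved. SPDEF, ELF3, TFAP2C and FOXA1 were higher with MitoQ, the first 2 by more than a doubling of the level, and no member was lower by the test. GATA3, TFAP2A and ESR1 did not pass it. AGR2 and TFAP2B had too few counts to be tested. Of the 15304 genes tested 57.5% passed, 29.9% as higher and 27.6% as lower. All 4 called members were higher, against that 29.9%. In either direction, 4 called of 7 tested is near the 57.5%, so the count is no result about them as a group. The members were also chosen with earlier results of these data known. The median log2 fold change was 0.35 over the 7 tested members and 0.01 over all genes tested. That of SKBR3, given below, was -0.00133 over the 9, AGR2 and TFAP2B included, so the medians of the lines cover unlike sets. Without the filter on low counts AGR2 and TFAP2B had log2 fold changes of -1.27 and -0.73 in MDA-MB-231. In such bulk samples fewer cells with a transcript and less of it per cell cannot be told apart.

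**Figure D3:**
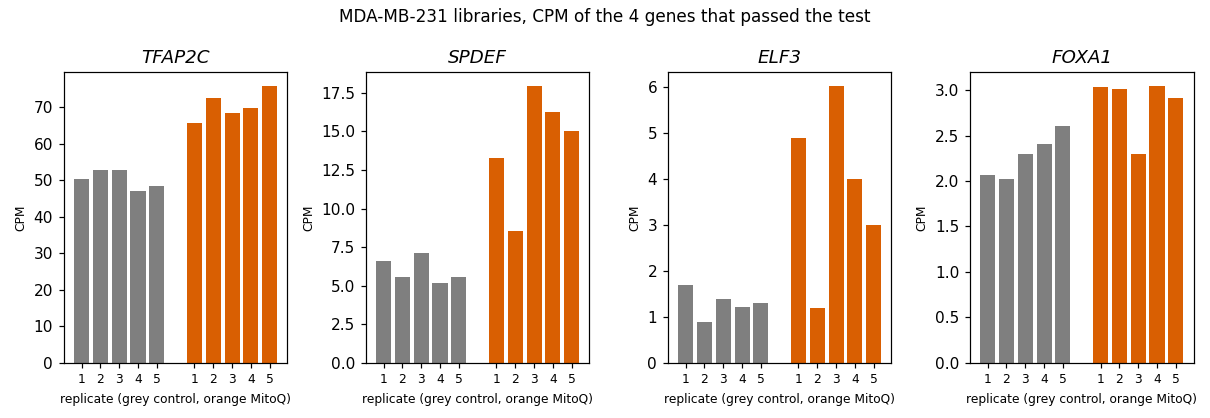
CPM of the 4 members that passed the test in MDA-MB-231, in each control (grey) and MitoQ (orange) library, on linear axes from 0. TFAP2C and SPDEF do not overlap between treatments, while ELF3 in MitoQ replicate 2 (1.19 CPM) and FOXA1 in MitoQ replicate 3 (2.30 CPM) lie within the control range.

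SPDEF rose in MDA-MB-231 from the control values given above, of which 7.11 CPM was the highest, to 13.3, 8.52, 17.97, 16.3 and 15 CPM with MitoQ. Every MitoQ library was above every control. The group means were 6.01 ± 0.809 and 14.2 ± 3.61 CPM (SD, n = 5 each), a log2 fold change of 1.26 ± 0.17 (SE; 2.39-fold, adjusted p = 3.12e-05, edgeR). The lowest MitoQ value was in the library that stood apart, replicate 2, and without it the log2 fold change was 1.40 (adjusted p = 6.01e-10).

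ELF3 had 4.88, 1.19, 6.02, 3.998 and 3 CPM with MitoQ against 0.894 to 1.69 CPM in controls. The groups overlapped through MitoQ replicate 2 alone, which lay within the control range, and the other MitoQ libraries were above every control. The log2 fold change was 1.58 ± 0.36 (2.98-fold, adjusted p = 0.00271), and 1.81 without replicate 2 (adjusted p = 3.07e-07). ELF3 ranked 342nd and SPDEF 637th by absolute log2 fold change among the genes tested in this line. Both stayed far below SKBR3, where ELF3 lay 104-fold and SPDEF 12.8-fold higher among the MitoQ libraries.

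TFAP2C had 65.8, 72.6, 68.5, 69.7 and 76.0 CPM with MitoQ against 47.1 to 52.9 CPM in controls. The groups were apart and the replicates close, so that this smaller change had the smallest p of the 7 tested members (log2 0.51 ± 0.052, 1.42-fold, adjusted p = 1.09e-07). Without replicate 2 the log2 fold change was 0.50 (adjusted p = 3.9e-08). TFAP2A, its paralogue, had 11.1, 11.49, 12.4, 10.4 and 10.7 CPM with MitoQ. These values overlapped the controls, with a log2 fold change of 0.17 (95% interval 0.01 to 0.32, adjusted p = 0.0817), and passed when counts were scaled by library totals (adjusted p = 0.021). Without replicate 2 it was 0.16 (adjusted p = 0.0919).

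FOXA1 had 3.03, 3.01, 2.30, 3.05 and 2.92 CPM with MitoQ against 2.02 to 2.61 CPM in controls. Replicate 3 overlapped the controls. The log2 fold change of 0.35 ± 0.14 (1.28-fold, adjusted p = 0.0324) was the least firm call, lost in 11 of 20 alternatives. It was lost with DESeq2 (adjusted p = 0.0743), without a filter (0.0764), with a replicate block (0.0622), in the 1.2-fold test (0.262) and at a threshold of 0.01. The call was also lost without any 1 of control replicate 1, 2 or 3 or MitoQ replicate 1, 4 or 5 (adjusted p of 0.0508 to 0.0715). It was kept without MitoQ replicate 2 (0.34, adjusted p = 0.0484). FOXA2, the FOXA gene with the most counts in this line, fell from 50.8 ± 2.23 to 34 ± 1.76 CPM (log2 -0.56 ± 0.052, adjusted p = 3.38e-08), and FOXA3 fell too (log2 -0.52 ± 0.13, adjusted p = 0.00226). The overlapping TTC6 rose from 0.599 ± 0.157 to 1.17 ± 0.157 CPM (log2 0.97 ± 0.22, adjusted p = 0.000907, edgeR), and its part in the FOXA1 counts was not tested. TTC6 was singled out after its values were seen.

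GATA3 had 12.2, 10.98, 13.3, 13.7 and 12.9 CPM with MitoQ, within 1 range with its controls (log2 0.09, 95% interval -0.06 to 0.24, adjusted p = 0.315). Without MitoQ replicate 2, its lowest MitoQ value, the log2 fold change was 0.15 (adjusted p = 0.0888). ESR1 had 1.04, 0.636, 0.979, 1.11 and 1 CPM, also overlapping (log2 -0.14, interval -0.54 to 0.25, adjusted p = 0.572). The low value is again MitoQ replicate 2, and without it the log2 fold change was -0.02 (adjusted p = 0.933). At 15 to 28 counts per MitoQ library the interval for ESR1 is wide. AGR2 had 13 counts over the 5 MitoQ libraries (0.0424 to 0.196 CPM) against 34 in controls. The control and MitoQ ranges overlapped, and the ratio of MitoQ to control counts was 0.399 (95% exact interval 0.193 to 0.776, exact two-sided permutation test over libraries p = 0.0476, where the smallest possible is 0.00794). Tested without the filter on low counts, the log2 fold change of AGR2 was -1.27 (adjusted p = 0.0532, edgeR), with DESeq2 -1.31 (adjusted p = 0.0868), and with the 16 libraries fitted jointly -1.28 (adjusted p = 0.00851). TFAP2B had 11 counts in controls and 6 with MitoQ, with 0 in 2 MitoQ libraries (exact permutation test p = 0.341, ratio 0.569, 95% exact interval 0.173 to 1.68).

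In SKBR3, where most of these genes are high, MitoQ changed 3 of them by small amounts: ELF3 was higher and AGR2 and FOXA1 were lower. The other 6, GATA3, ESR1, TFAP2A, TFAP2B, TFAP2C and SPDEF, did not pass the test. Of 15026 genes tested in SKBR3 28% passed, 13.8% as higher and 14.1% as lower, so that 3 of 9 members is near the background and is no result about them as a group. Their median log2 fold change (-0.00133) was close to that of all genes tested (-0.000642).

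**Figure D4:**
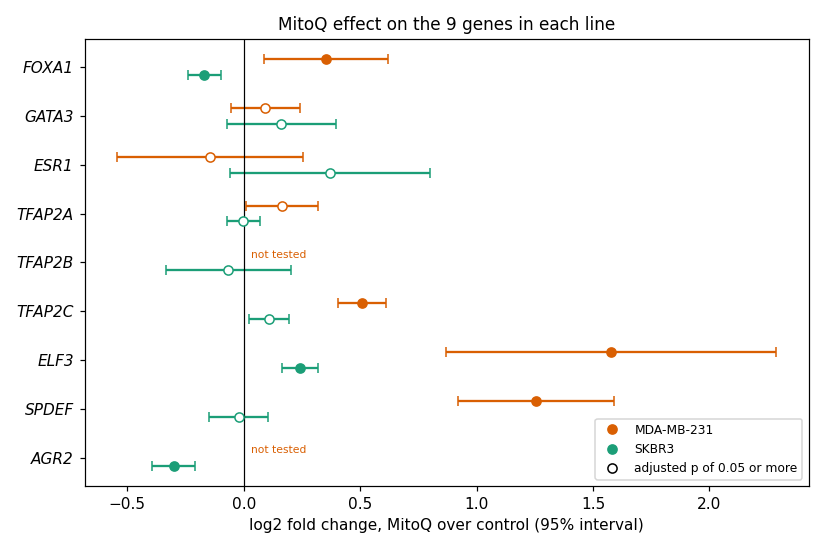
Log2 fold change of MitoQ over control for each member in MDA-MB-231 (orange, 5 against 5 libraries) and SKBR3 (green, 3 against 3), with 95% intervals from the SE. Filled points had an adjusted p under 0.05. ELF3 (1.58) and SPDEF (1.26) lie far to the right in MDA-MB-231, and FOXA1 lies on opposite sides of 0 in the lines.

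AGR2 fell in SKBR3 from 104, 93.8 and 99.8 CPM to 79.1, 79.0 and 87.3 CPM. All MitoQ libraries were below all controls. The log2 fold change was -0.30 ± 0.048 (1.23-fold lower, adjusted p = 0.000405, edgeR), and -0.29 without control replicate 3 (adjusted p = 3e-04). It was the member with the largest called change in this line.

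FOXA1 fell from 191, 185 and 195 to 169, 170 and 178 CPM, again with the groups apart (log2 -0.17 ± 0.036, 1.12-fold lower, adjusted p = 0.00303). Without control replicate 3 it was -0.14 (adjusted p = 0.0102), and without MitoQ replicate 2 it missed the threshold (-0.14, adjusted p = 0.0512). TTC6 on the other strand fell as well, from 22.7 ± 1.90 to 16.8 ± 0.937 CPM (n = 3 each; log2 -0.45 ± 0.080, adjusted p = 0.000859, edgeR). ELF3 rose from 327, 318 and 338 to 371, 396 and 415 CPM, with all MitoQ libraries above all controls. Its log2 fold change was 0.24 ± 0.039 (1.18-fold, adjusted p = 0.000447), and 0.27 without control replicate 3 (adjusted p = 7.73e-05). With the 16 libraries fitted jointly, whose spread includes that of MDA-MB-231, AGR2 remained called while ELF3 (adjusted p = 0.364) and FOXA1 (adjusted p = 0.0695) did not. None of the 3 passed a test against a 1.2-fold change.

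TFAP2C had 354, 383 and 399 CPM with MitoQ and 346, 328 and 363 CPM without, a log2 fold change of 0.11 (95% interval 0.02 to 0.19, adjusted p = 0.0738). It passed without control replicate 3 (0.16, adjusted p = 0.0121) and without MitoQ replicate 1 (0.16, adjusted p = 0.0193), and with some other settings. SPDEF had 177, 176 and 193 CPM with MitoQ against 167, 173 and 205 CPM (log2 -0.02, interval -0.15 to 0.10, adjusted p = 0.838), and its sign turned without control replicate 3 (0.08, adjusted p = 0.17). TFAP2A had 146, 148 and 147 CPM with MitoQ, with a log2 fold change between -0.07 and 0.07 (95% interval), and its sign, too, turned without control replicate 3 (0.01).

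ESR1 had 1.54, 1.78 and 1.83 CPM with MitoQ against 1.46, 1.198 and 1.27 CPM in SKBR3 controls. The groups were apart, yet at 18 to 49 counts per library the log2 fold change of 0.37 had an interval of -0.06 to 0.80 (adjusted p = 0.235; 0.35 without control replicate 3, adjusted p = 0.377). GATA3 (6.65, 7.76 and 7.54 CPM) and TFAP2B (5.50, 4.90 and 4.42 CPM) overlapped their controls (log2 0.16 and -0.07, adjusted p = 0.355 and 0.769). Without control replicate 3 they were 0.23 and -0.05 (adjusted p = 0.256 and 0.856). Between the MitoQ libraries of the lines all 9 members passed, 8 higher in SKBR3 and GATA3 lower (log2 -0.78, adjusted p = 8.35e-08). In that comparison 85.2% of 17094 genes passed, 42% as higher and 43.2% as lower. AGR2 and TFAP2B again passed the filter on low counts only through SKBR3. ESR1 was among the 8 (log2 0.84 ± 0.21, adjusted p = 0.000654), which it was not among the controls, though its MitoQ effect was not shown to differ between the lines (adjusted p = 0.168).

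Whether the MitoQ effect differed between the lines was tested as the interaction over all 16 libraries. The 4 members SPDEF, ELF3, TFAP2C and FOXA1 had a lower effect in SKBR3 than in MDA-MB-231, and no member had a higher one by the test. Of 17094 genes 34.1% passed this test, 14.9% with a lower and 19.1% with a higher effect in SKBR3. The differences of log2 fold change, SKBR3 minus MDA-MB-231, were -1.23 ± 0.23 for SPDEF (adjusted p = 0.000915), -1.29 ± 0.39 for ELF3 (adjusted p = 0.0219), -0.35 ± 0.077 for TFAP2C (adjusted p = 0.000809) and -0.48 ± 0.11 for FOXA1 (adjusted p = 0.0015). FOXA1 was called in both lines and in opposite directions, though its call in MDA-MB-231 was lost in 11 of 20 alternatives. ELF3 was called higher in both, by a larger factor from a far lower base in MDA-MB-231. Without MDA-MB-231 MitoQ replicate 2 the 4 differences were -1.35, -1.50, -0.33 and -0.46, and without SKBR3 control replicate 3 they were -1.12, -1.25, -0.31 and -0.46, with all 4 called each time. AGR2 had a difference of 1.01 ± 0.40 (adjusted p = 0.0606), resting on 34 control and 13 MitoQ counts in MDA-MB-231, and it passed without MDA-MB-231 control replicate 2 (1.199, adjusted p = 0.0249), control replicate 4 (1.13, adjusted p = 0.037) or MitoQ replicate 3 (1.26, adjusted p = 0.0303). GATA3, ESR1, TFAP2A and TFAP2B had adjusted p of 0.61, 0.168, 0.288 and 0.457.

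By a fixed rule, the 2 genes of at least 5 CPM whose log2 CPM had the highest Pearson r with each called member were taken within each line. Over the 10 MDA-MB-231 libraries these were TSPAN31 and NOX5 for ELF3 (both r = 0.983), VAT1 and TMEM132A for SPDEF (r = 0.992 and 0.991), DTD1 and ZFAND3 for TFAP2C (both r = 0.996), and DNAH11 and KRBOX4 for FOXA1 (r = 0.935 and 0.927), of 11042 genes compared. Over the 6 SKBR3 libraries they were SRP72 and RAN for AGR2, SCAMP4 and TAGLN2 for ELF3, and MRM2 and MRPS18A for FOXA1 (r = 0.997 to 0.999, 10398 genes). The libraries fall into control and MitoQ, so each r holds the treatment difference as well as the variation within it. As the highest of so many genes over few libraries, each r is also high by selection. Shared regulation was not tested.

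The 6 gene lists were followed beside the members; their counts are to be read against the shares over all genes, in MDA-MB-231 29.9% higher and 27.6% lower, and in SKBR3 13.8% higher and 14.1% lower. Without the library that stood apart these shares were 31.5% and 27.7% in MDA-MB-231 (without MitoQ replicate 2) and 16.8% and 12.9% in SKBR3 (without control replicate 3). Of the MitoQ calls given below for single list genes, that of MUC1 in SKBR3 was lost when this library of the same line was left out, and the others held.

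The relatives of the members were a list of 21 genes. In MDA-MB-231 15 were tested, 4 higher and 5 lower with MitoQ (median log2 fold change -0.05), so that their called share was near the 57.5% of all genes. Without MitoQ replicate 2 the counts were 3 and 4. GATA6 rose from 16.7 ± 0.511 to 31.3 ± 1.87 CPM (log2 0.92 ± 0.057, adjusted p = 8.84e-11) and EHF from 19.1 ± 1.55 to 27.8 ± 4.35 CPM (log2 0.56 ± 0.095, adjusted p = 7.02e-05). Without MitoQ replicate 2 the log2 fold changes were 0.96 for GATA6 and 0.64 for EHF. Thus within the GATA family GATA6 passed the test where GATA3 did not, and among the epithelial ETS genes EHF rose beside ELF3 and SPDEF. Not all ETS genes went this way. ELF5 had 28 counts in controls and 20 with MitoQ. The means of ELF2 (32.6 ± 0.638 to 28.1 ± 1.73 CPM) and ELF4 (67.7 ± 4.36 to 60.4 ± 4.85 CPM) were lower with MitoQ. In SKBR3 3 of 13 tested were higher, ELF4 (log2 0.22 ± 0.058, adjusted p = 0.0106), ESRRA (0.23 ± 0.063, adjusted p = 0.0168) and GATA6 (0.24 ± 0.080, adjusted p = 0.0381), and 0 lower, near the 28% called over all genes. Without control replicate 3 the counts were 3 and 2 of 14. For the interaction 17 relatives were tested. The MitoQ effect in SKBR3 was higher for 2 and lower for 2, against 19.1% and 14.9% of all genes. The 2 lower were GATA6 (-0.64 ± 0.10, adjusted p = 2.05e-05) and EHF (-0.72 ± 0.15, adjusted p = 0.000459).

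Of 28 cofactors and corepressors, 10 were higher and 4 lower in MDA-MB-231 (the same counts without MitoQ replicate 2), where 29.9% of all genes were higher and 27.6% lower. In SKBR3 7 were higher and 4 lower (6 and 5 without control replicate 3), against 13.8% and 14.1% of all genes. In MDA-MB-231 LMO4, a LIM-domain adaptor, rose from 22.1 ± 1.28 to 58.8 ± 2.43 CPM (2.70-fold, adjusted p = 7.25e-14). KCTD15, known as an inhibitor of AP-2 activity, rose from 0.706 ± 0.105 to 3.67 ± 0.778 CPM (5.23-fold, adjusted p = 2.75e-09), and lay at 91.2 ± 4.72 CPM in SKBR3 controls. The SUMO ligase gene PIAS1 and the histone demethylase gene KDM1A fell (log2 -0.48 and -0.43, adjusted p = 5.17e-08 and 1.73e-07). In SKBR3 the corepressor gene TLE3 and the methyltransferase gene CARM1 rose by 0.29 each (adjusted p = 0.00044 and 0.000615). The GATA-type repressor gene TRPS1 fell from 1260 ± 8.80 to 1080 ± 25.3 CPM (log2 -0.25, adjusted p = 0.000255), and NRIP1, a corepressor of nuclear receptors, by -0.20 (adjusted p = 0.00266).

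Among 25 genes known as oestrogen receptor targets, 10 of the 20 tested in MDA-MB-231 were higher and 6 lower (10 and 5 without MitoQ replicate 2), against 29.9% and 27.6% of all genes. ESR1 itself lay near 1 CPM in both groups. XBP1, a factor of the unfolded protein response, rose from 58.1 ± 2.10 to 148 ± 5.33 CPM (2.59-fold, adjusted p = 6.39e-15), and GREB1, a coactivator of the receptor, from 1.81 ± 0.302 to 4.79 ± 0.661 CPM (2.67-fold, adjusted p = 9.06e-08). The cochaperone gene FKBP4 and the transcription factor gene MYB fell (log2 -0.38 and -0.83, adjusted p = 4.85e-06 and 8.43e-05). In SKBR3 2 of 19 were higher, the cyclin gene CCND1 (0.20, adjusted p = 0.00306) and the retinoic acid receptor gene RARA (0.22, adjusted p = 0.0275), and 5 lower (3 and 5 of 21 without control replicate 3), against 13.8% and 14.1% of all genes. The prolactin receptor gene PRLR fell from 187 ± 1.34 to 150 ± 3.78 CPM (log2 -0.34, adjusted p = 1.74e-05), and MYB from 21.8 ± 1.03 to 15.6 ± 0.607 CPM (log2 -0.50, adjusted p = 0.000266), so that MYB was lower with MitoQ in both lines.

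Luminal and epithelial identity genes mark the same cells as the members. Of 28, 27 were higher in SKBR3 than in MDA-MB-231 controls and 0 lower (median log2 difference 3.89), against 42% and 44.4% of all genes. The counts were the same without SKBR3 control replicate 3. With MitoQ, 8 of 23 tested in MDA-MB-231 were higher and 3 lower (9 and 4 of 24 without MitoQ replicate 2), the higher share lying near the 29.9% of all genes. In SKBR3 10 of 28 were higher and 1 lower (11 and 1 without control replicate 3), against 13.8% and 14.1%. The keratin gene KRT7 rose in both lines, from 173 ± 12.4 to 339 ± 36.1 CPM in MDA-MB-231 (adjusted p = 6.94e-10, 1.98-fold) and from 1100 ± 97.4 to 1510 ± 121 CPM in SKBR3 (adjusted p = 0.000324, 1.35-fold). MLPH, which links vesicles to myosin, rose from 73.9 ± 2.42 to 149 ± 12.7 CPM in MDA-MB-231 (adjusted p = 7.54e-12), and the keratin gene KRT18 rose in SKBR3 (log2 0.23, adjusted p = 0.00124). The surface glycoprotein gene CD24 and the protease inhibitor gene SPINT1 fell in MDA-MB-231 (log2 -0.48 and -0.67, adjusted p = 0.000633 and 0.000837). The 1 lower gene in SKBR3 was the mucin gene MUC1 (log2 -0.26, adjusted p = 0.0453), a call lost without control replicate 3 (-0.19, adjusted p = 0.22).

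**Figure D5:**
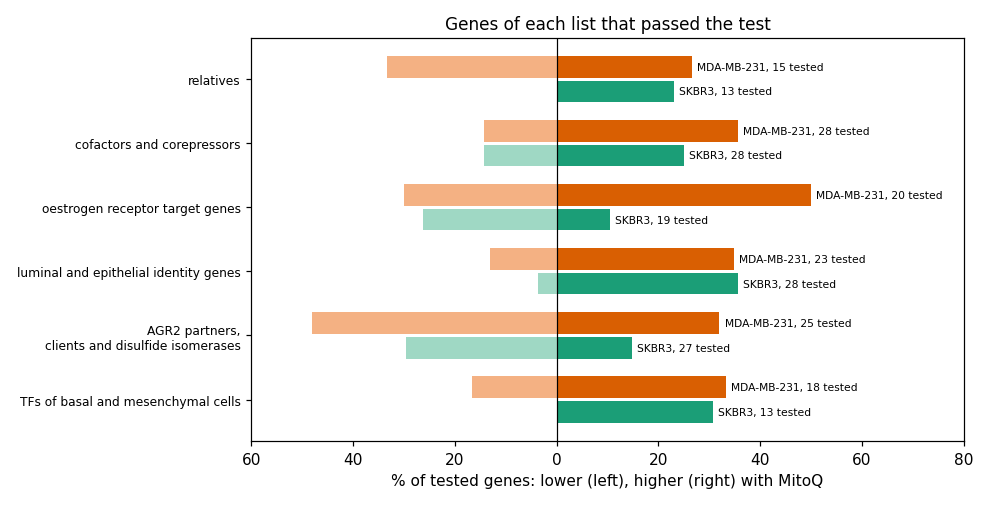
Percentage of the tested genes of each list that were higher (right) or lower (left) with MitoQ at an adjusted p under 0.05, in MDA-MB-231 (orange) and SKBR3 (green). The number tested is beside each pair of bars. The list around AGR2 has more lower than higher genes in both lines, with 12 against 8 in MDA-MB-231 and 8 against 4 in SKBR3, where over all genes 27.6% were lower against 29.9% higher, and 14.1% against 13.8%. In SKBR3 the split was 6 against 5 without control replicate 3.

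Around AGR2, a list of 29 partners, clients and disulfide isomerases of the endoplasmic reticulum had 8 higher and 12 lower of 25 tested in MDA-MB-231, and 4 higher and 8 lower of 27 tested in SKBR3 (median log2 fold change -0.15 and -0.07). Over all genes 29.9% were higher and 27.6% lower in MDA-MB-231, and 13.8% and 14.1% in SKBR3. The counts were 9 higher and 12 lower without MDA-MB-231 MitoQ replicate 2, and 5 higher and 6 lower without SKBR3 control replicate 3. In MDA-MB-231 ERN1, which encodes the stress sensor IRE1 that splices XBP1 RNA, rose from 17.6 ± 1.2 to 78.6 ± 3.57 CPM (4.55-fold, adjusted p = 4.02e-16) together with XBP1. The chaperone gene CALR fell from 1190 ± 40.9 to 568 ± 54.4 CPM (2.07-fold lower, adjusted p = 1.47e-11) and the isomerase gene PDIA6 from 329 ± 6.04 to 237 ± 5.79 CPM (adjusted p = 1.33e-08). In SKBR3, beside the fall of AGR2, HSP90B1, a chaperone of the endoplasmic reticulum, fell from 811 ± 16.1 to 666 ± 12 CPM (adjusted p = 4.84e-05) and the isomerase gene TMX3 from 66.2 ± 1.63 to 53.7 ± 2.58 CPM (adjusted p = 0.000185). The oxidase gene ERO1A (log2 0.25, adjusted p = 0.00214) and the dystroglycan gene DAG1 (log2 0.17, adjusted p = 0.0103) rose there.

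A list of 25 transcription factors was drawn up for basal and mesenchymal cells, though some, KLF4 among them, are not particular to such cells. Between the control lines 20 were tested, 4 higher and 12 lower in SKBR3 (median log2 difference -1.38), against 42% and 44.4% of all genes. With MitoQ 18 were tested in MDA-MB-231, 6 higher and 3 lower, and 13 in SKBR3, 4 higher and 0 lower. For MitoQ the shares over all genes were 29.9% higher and 27.6% lower, and 13.8% and 14.1%. Without MDA-MB-231 MitoQ replicate 2 the counts were 7 and 3, and without SKBR3 control replicate 3 they were 4 and 0. In MDA-MB-231 KLF4 rose from 19.9 ± 0.801 to 52.8 ± 4.56 CPM (2.70-fold, adjusted p = 6.55e-13) and FOXC1, a marker of basal-like tumours, from 18.2 ± 0.883 to 33.6 ± 1.37 CPM (1.87-fold, adjusted p = 8.33e-11). STAT3 and TCF4 fell (log2 -0.46 and -0.71, adjusted p = 1.64e-08 and 3.02e-06). In SKBR3 ID4 rose from 3.74 ± 0.0687 to 8.51 ± 1.53 CPM (2.23-fold, adjusted p = 5.01e-05), and KLF4 rose there too (log2 0.48, adjusted p = 0.000189). So in MDA-MB-231 genes of both the luminal and the basal lists were among those that rose, next to 29.9% of all genes tested.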

How the data were processed

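RNA of 16 samples was extracted with a column kit that included DNase. The deposited table holds estimated counts per gene, whole numbers as given by the authors, whose tools were Salmon and edgeR and whose genome was GRCh38, per the submitters' processing notes. The sources used here do not give versions, annotation, strand setting or any rounding. Columns were matched to samples by the labels, and 0 columns were left unmapped. Genes were kept with filterByExpr (minimum count 10), given TMM factors and compared in edgeR 4.0.16 under R 4.3.3 (robust quasi-likelihood fit, two-sided), with Benjamini-Hochberg adjustment over all genes tested and a threshold of 0.05. Adjusted p without a tool beside them come from edgeR. SEs are |log2 fold change| divided by √F. The treatment test used the libraries of 1 line, that of the lines the 8 controls, and the interaction all 16 libraries. CPM come from 1 scaling over all libraries, and log2 CPM have 2 counts added. Positions, transcript lengths and shared 31-base stretches come from GENCODE release 29 on GRCh38. A count of 0 allows up to 3 counts.

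The members and gene lists were chosen with earlier results of these data known. Named are the 9 members, at most the 2 called genes of smallest p per list, direction and line, and the 2 genes of highest r per called member. TTC6 and, where they are not among these, family relatives shown for the lines or beside EHF were added after their values were seen. The alternatives were other size factors, library totals, DESeq2 1.42.0, limma voom (limma 3.58.1) with quality weights, a filter at 1 CPM or none, a test against a 1.2-fold change, a threshold of 0.01, a replicate block, the 16 libraries fitted jointly and leaving out each library. The counting ratios with exact permutation tests for AGR2 and TFAP2B, the alternatives for the MitoQ libraries of the lines, the longest transcript as length, and the gene lists without the libraries that stand apart were chosen after the data were seen. The tests were also run on simulated counts with the same spread set for all genes. In the MDA-MB-231 MitoQ libraries ELF3 and SPDEF spread more than that (SD of 48.3% and 25.4% of the mean), so the simulation does not cover them. No replicate pair agreed within sampling noise.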

Additional observations from a re-analysis of the deposited data

Results flagged for a closer look

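In the MDA-MB-231 groups of 5 libraries each, 18 sets of member values were searched for a library far from the other 4, which chance gives in about 1 of 20 sets, and 2 were found. FOXA1 in MitoQ replicate 3 had 2.30 CPM against 2.92 to 3.05 CPM in the other MitoQ libraries. ESR1 in MitoQ replicate 2 had 0.636 CPM against 0.979 to 1.11 CPM.

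The MitoQ effect differed between the lines for 4 members by the edgeR interaction test. The difference of log2 fold change, SKBR3 minus MDA-MB-231, was -0.48 for FOXA1 (adjusted p = 0.0015), -0.35 for TFAP2C (adjusted p = 0.000809), -1.29 for ELF3 (adjusted p = 0.0219) and -1.23 for SPDEF (adjusted p = 0.000915).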

How the results depend on the processing

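Of 500 repeats of a called member result under an alternative, 480 kept the call and direction, 20 lost the call and 0 changed sign. The comparisons between the lines lost no call, so all 20 losses were in MitoQ effects or their difference between lines. FOXA1 in MDA-MB-231 made up 11 of them. Of 297 repeats of a result that was not called, 10 became called and 17 changed sign. With the 1.2-fold test 0 members were called in SKBR3 and 2 (SPDEF and FOXA1) for the difference between lines. With 1 fit over all libraries 1 member (AGR2) was called in SKBR3. Leaving out a library gave 3 to 4 called members in MDA-MB-231, 2 to 4 in SKBR3, 4 to 5 for the difference, 8 between control lines and 9 between MitoQ libraries. Over all genes, the 1.2-fold test called 4400, 472 and 2877 genes for MDA-MB-231, SKBR3 and the difference, against 8805, 4202 and 5823. In SKBR3, 2788 genes were called with 1 fit over all libraries, 2436 at a threshold of 0.01 and 2565 without MitoQ replicate 2.

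Sign changes were all in uncalled results near 0. ESR1 in MDA-MB-231 was 0.01469 with limma voom. TFAP2A in SKBR3 was 0.0006963 with DESeq2 size factors, 0.009666 with library totals, 0.000922 with limma voom, 0.009585 without a filter, 0.002115 with a filter at 1 CPM and 0.01951 in 1 fit over all libraries. SPDEF in SKBR3 was 0.000443 in that fit. Leaving out a library in SKBR3 gave -0.003588 to 0.01886 for TFAP2A, -0.07917 to 0.08347 for SPDEF and -0.1373 to 0.009297 for TFAP2B. The cause was not tested.

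Same-numbered control and MitoQ libraries did not deviate together over all genes (r from -0.0462 to 0.0194, none matching its own number best), and the main tests used no pairing. Such correlations cannot show whether single genes are paired. With a replicate block the edgeR adjusted p in MDA-MB-231 fell for ELF3 (2.55e-05 against 0.00271) and rose for TFAP2C (3.33e-06 against 1.09e-07). A replicate block called 3 members (8363 genes) in MDA-MB-231, where FOXA1 had an adjusted p of 0.0622, 4 members (4758 genes) in SKBR3, where TFAP2C had 0.0281, and 4 members (5416 genes) for the difference. Depth limits AGR2 and TFAP2B in MDA-MB-231, with 34 and 11 counts in controls, and ESR1 in both lines.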
